A study of Mus musculus with 8 samples.

Results

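*Aldoa*, *Pkm*, *Ldha*, *Txnip* and *Gpx4* were examined as a set of 5 genes of glycolysis and redox control, out of 5736 genes with a value in every library. They were picked by name, with their levels in these libraries already known, so their levels and differences are given as a description without a test. *Aldoa*, *Pkm* and *Ldha* encode glycolytic enzymes, *Txnip* encodes an inhibitor of glucose uptake that also binds thioredoxin, and *Gpx4* encodes a selenoprotein that removes lipid peroxides.

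RNA was sequenced from 8 libraries of EGFP-positive germ cells, sorted from pooled testes of mouse litters (at least 5 pups for each isolation) that carry the *Uchl1-eGfp* transgene (strain label CD1:Uchl1-eGFP). In this line the *Uchl1* promoter drives EGFP, which marks spermatogonia in general and not a single stage. Pups of every group received bis-(dichloroacetyl)-diamine by mouth, at 100 µg per g of body weight, which stops the synthesis of retinoic acid (RA). In the published scheme, RA (10 µg/µl, 10 µl) injected on postnatal day 11 then starts differentiation in synchrony. The Aal group holds 2 libraries of undifferentiated spermatogonia, which in the scheme of the study come before RA. The sample annotation lists the same RA injection for every group, Aal included, so that Aal had no RA rests on the study alone. The A1 group holds 3 libraries of the first differentiating type, and the A3 group holds 3 libraries of a later differentiating type. The age of each group is not in the sample labels, and stage, age and time after RA move together in this design and cannot be told apart. No litter is tied to a library, so the spread between libraries may be in part technical.

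Glycolysis turns glucose into pyruvate in the cytosol and yields ATP without oxygen, and lactate dehydrogenase regenerates the NAD+ it needs by turning pyruvate into lactate. Undifferentiated spermatogonia are commonly described as relying more on glycolysis, with mitochondrial respiration gaining weight as germ cells differentiate. Cells also have to dispose of the peroxides that respiration makes, which they do through the thioredoxin and glutathione systems. TXNIP joins these fields, since it removes glucose transporters from the plasma membrane, binds thioredoxin and is itself induced by glucose. GPX4 reduces peroxidised phospholipids with glutathione, guards against ferroptosis, and in late spermatids becomes a structural protein of the sperm midpiece.

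Sequence is shown first for the region before *Txnip* and *Ldha*, the pair whose levels followed each other most closely of the 5. The 250 bases before their start sites were taken from RefSeq (GRCm38.p6) and were found unaltered in mm9, at chr3:96361630-96361879 for *Txnip* and chr7:54100924-54101173 for *Ldha*, both on the plus strand. Capitals mark the carbohydrate response element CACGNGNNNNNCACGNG in *Txnip*, the kind of site through which glucose acts on transcription, and every ACGTG, the core of a hypoxia response element, in *Ldha*.
Txnip: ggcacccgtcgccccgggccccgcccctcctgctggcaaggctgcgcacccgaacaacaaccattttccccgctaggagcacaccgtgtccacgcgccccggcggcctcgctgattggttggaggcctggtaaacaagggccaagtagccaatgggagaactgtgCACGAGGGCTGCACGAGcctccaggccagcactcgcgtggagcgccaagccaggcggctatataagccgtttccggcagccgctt
Ldha: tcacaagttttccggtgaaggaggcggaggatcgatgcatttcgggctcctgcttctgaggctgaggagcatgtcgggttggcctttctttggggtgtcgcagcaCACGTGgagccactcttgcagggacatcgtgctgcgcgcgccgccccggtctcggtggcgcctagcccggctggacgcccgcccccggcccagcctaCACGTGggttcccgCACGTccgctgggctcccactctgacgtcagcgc

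Both strands were searched, and for genes with several start sites the one with most annotated transcript starts nearby was used. The carbohydrate response element had 1 match before *Txnip*, and 0.0457% of 32851 RefSeq promoter windows of the same length held it. ACGTG had 5 matches before *Ldha*, of which 4 lay pairwise within 2 copies of the E-box CACGTG, and 16.6% of windows held ACGTG. *Txnip* had no ACGTG, and *Ldha* had no carbohydrate response element and no CCAAT, so none of these letter patterns was shared by the pair. The GC box GGGCGG was the pattern that all 5 genes had, and 32.7% of windows held it. These matches describe the letters and not the use of a site.

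The part of the *Gpx4* message that makes its product a selenoprotein is shown as well. It is taken from the GENCODE M1 transcripts, lies within 1 coding exon at chr10:79517467-79517499 of mm9 (plus strand), and has the in-frame TGA in capitals, which is read as selenocysteine and not as a stop.
Gpx4: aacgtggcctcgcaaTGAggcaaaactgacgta

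In the shorter coding sequence, of 197 codons, this TGA is codon 73, and in the longer one, of 253 codons, it is codon 129. The added codons precede the shared stretch. The deposited values sum over such transcripts, so the forms of *Gpx4*, like the splice forms of *Pkm*, could not be told apart.

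Levels are given in FPKM, read fragments scaled to the length of the gene and the depth of the library, as deposited. Differences are in log2(FPKM + 1) with their standard error (SE) and 95% interval. They come from limma, a linear model fitted to all genes that borrows information on spread between genes. The values gave back library totals between 18276164 and 27316451 reads, and 34.0% to 34.4% of each total belonged to the genes analysed. *Ldha* rested on 161 to 959 reads per library, so its counting error was between 3.23% and 7.88%. For the other members that error was between 0.69% and 2.52%. Counting error covers the sampling of reads only.

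Before the levels, the purity of the sorted cells was examined. Of 21 markers of undifferentiated spermatogonia, 10 were in the table, with a summed level of 365 to 415 FPKM in Aal, 77.5 to 123 in A1 and 77.2 to 83.7 in A3. Of 10 markers of differentiating spermatogonia, 6 were in the table, summing to 119 to 130 FPKM in Aal, 218 to 243 in A1 and 258 to 279 in A3. Of 30 markers of Sertoli cells, the somatic nurse cells of the tubule, 14 were in the table, which holds no value of 0 for any gene. Their sum was 45.3 and 63.1 FPKM in Aal. It was 71.6 and 73.7 in A1-1 and A1-2 but 499 in A1-3, and it was 256 to 476 in A3. Sums for Leydig, peritubular myoid, macrophage and endothelial markers stayed at or under 15.3 FPKM in every library, those for spermatocytes and spermatids (4 of 14) ran from 57.9 to 89.1, those for germ cells in general (3 of 12) from 4547 to 7836, and none of 7 red blood cell genes was analysed. Early response genes that cell dissociation induces (4 of 15) summed to 10.6 to 13.8 FPKM in Aal, 5.57 to 6.63 in A1 and 4.84 to 6.13 in A3, and their part in the differences below was not tested. A1-3 and the A3 libraries thus stood apart in Sertoli transcripts. A1-3 also had the highest sums for macrophage (15.3 FPKM, at most 7.76 in any other library), Leydig (10.9, at most 4.57) and peritubular myoid markers (6.53, at most 3.36). Its endothelial sum (9.83 FPKM) was under that of Aal-2 (10.5 FPKM). The differences of the 5 members and the counts of list genes that passed are also given without A1-3. For the single list genes below, such values are mostly not given. In sorted bulk samples, fewer cells of a type and less RNA per cell cannot be told apart.

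*Aldoa*, aldolase A, splits the phosphorylated hexose into triose phosphates. The gene lies at chr7:133938748-133944265 of mm9 on the minus strand (ENSMUSG00000030695.7). Its level was 91.6 and 92.6 FPKM in the Aal libraries, 135, 168 and 160 in A1, and 102, 88.7 and 94.5 in A3. All A1 libraries were above all Aal and A3 libraries, while the range of A3 enclosed that of Aal. The mean was thus 1.67-fold higher in A1 than in Aal, and the A1 mean was 1.62-fold above that of A3. The difference was 0.73 (SE 0.10, interval 0.50 to 0.96) for A1 against Aal and -0.69 (SE 0.09, interval -0.90 to -0.47) for A3 against A1. For A3 against Aal it was 0.04 (SE 0.08, interval -0.13 to 0.22). *Aldoa* was the only one of the 5 with its peak in A1.

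*Aldoc*, which encodes aldolase C and was the other aldolase analysed, had 23.7 to 29.7 FPKM over all 8 libraries. It did not pass in any of the 3 comparisons, with differences of -0.04 (SE 0.09), 0.04 (SE 0.10) and 0.00 (SE 0.10). The ratio of *Aldoa* to *Aldoc* was therefore 3.52 in Aal-1, with Aal-2 lower,, 5.42, 5.82 and 6.35 in A1, and 4.32, 3.13 and 3.18 in A3.

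*Pkm*, pyruvate kinase of muscle and proliferating cells, carries out the last step of glycolysis and makes pyruvate and ATP. It lies at chr9:59504383-59527182 on the plus strand and is listed in the mm9 annotation under the older symbol *Pkm2* (ENSMUSG00000032294.9). It had 230 and 238 FPKM in Aal, 141, 138 and 149 in A1, and 148, 140 and 153 in A3. Both Aal libraries were above all the others, and the A1 and A3 libraries overlapped. The step from Aal to A1 was -0.71 (SE 0.06, interval -0.86 to -0.56), and the Aal mean was 1.64 times that of A1. From A1 to A3 the difference was 0.04 (SE 0.06, interval -0.09 to 0.17), and from Aal to A3 it was -0.67 (SE 0.07, interval -0.83 to -0.51). *Aldoa* per *Pkm*, as a ratio of FPKM, went from 0.398 and 0.389 in Aal to 0.954, 1.21 and 1.08 in A1 and to 0.692, 0.635 and 0.618 in A3.

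*Ldha*, the A subunit of lactate dehydrogenase, favours the making of lactate from pyruvate. It lies at chr7:54096845-54110997 on the plus strand (ENSMUSG00000063229.7). It had 16.9 and 19.8 FPKM in Aal, 6.24, 5.99 and 6.86 in A1, and 4.73, 3.73 and 3.49 in A3. The 3 groups did not overlap, and the order was Aal, then A1, then A3. The Aal mean was 2.89 times that of A1 and 4.61 times that of A3. On the log2(FPKM + 1) scale, which understates changes of low values, the differences were -1.39 (SE 0.11, interval -1.65 to -1.14) from Aal to A1 and -0.57 (SE 0.12, interval -0.86 to -0.28) from A1 to A3. The net difference from Aal to A3 was -1.96 (SE 0.14, interval -2.29 to -1.63).

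*Ldhc*, the lactate dehydrogenase subunit of the male germ line, had 4.43 and 4.77 FPKM in Aal, 1.34 to 1.54 in A1, and 3.14, 1.84 and 3.42 in A3. It fell from Aal to A1 by 1.19 on the log2(FPKM + 1) scale (SE 0.12, limma with Benjamini-Hochberg adjustment, adjusted p = 0.00043). From A1 to A3 its difference was 0.60 (SE 0.18, limma, adjusted p = 0.051). *Ldha* per *Ldhc* was 3.83 and 4.15 in Aal, 4.06, 4.47 and 4.56 in A1, and 1.51, 2.02 and 1.02 in A3. *Pkm* per *Ldha* was 13.6 and 12.0 in Aal, 22.7, 23.0 and 21.7 in A1, and 31.2, 37.4 and 43.8 in A3. The gene copies described further on make such ratios between genes uncertain.

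*Txnip* lies at chr3:96361880-96365806 on the plus strand (ENSMUSG00000038393.7). It had the highest deposited FPKM of the 5 in Aal and ranked between place 32 and place 36 of the 5736 genes there. It had 294 and 298 FPKM in Aal, 129, 118 and 129 in A1, and 90.1, 79.8 and 78.1 in A3. As for *Ldha*, the groups were separate and in the order Aal, A1, A3. The Aal mean was 2.36 times the A1 mean and 3.58 times the A3 mean. The differences were -1.23 (SE 0.07, interval -1.39 to -1.07) from Aal to A1, -0.60 (SE 0.07, interval -0.76 to -0.43) from A1 to A3 and -1.83 (SE 0.08, interval -2.01 to -1.65) overall. The lincRNA *Gm15441* spans the whole of *Txnip* on the opposite strand. It had 0.52 to 2.40 FPKM, between 0.646% and 0.972% of the *Txnip* value in the same library. Whether strand was used in counting is not given in the sources used here, so reads of the pair cannot be told apart with certainty.

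*Gpx4* lies at chr10:79509911-79519184 on the plus strand (ENSMUSG00000075706.3). It had 42.6 and 41.4 FPKM in Aal, 92.0, 98.6 and 91.3 in A1, and 98.2, 105 and 114 in A3. All differentiating libraries were above both Aal libraries, and A1 and A3 overlapped, since A3-1 lay just under A1-2. The mean was 2.24-fold higher in A1 and 2.52-fold higher in A3 than in Aal. The differences were 1.14 (SE 0.06, interval 1.00 to 1.29) from Aal to A1, 0.17 (SE 0.07, interval 0.01 to 0.32) from A1 to A3 and 1.31 (SE 0.08, interval 1.13 to 1.49) overall. *Gpx4* per *Txnip* was 0.145 and 0.139 in Aal, 0.712, 0.835 and 0.709 in A1, and 1.09, 1.32 and 1.46 in A3. Their order by deposited FPKM was thus turned around between Aal and A3, but the gene copies described further on make this ratio uncertain.

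**Figure D1:**
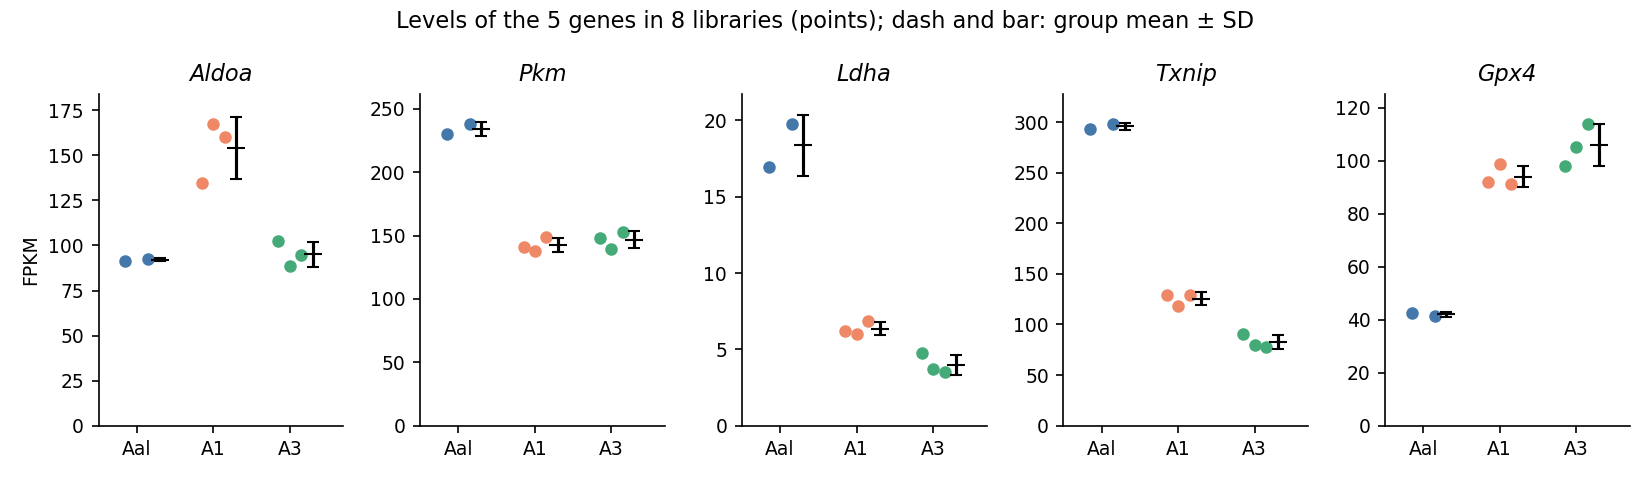
Level of *Aldoa*, *Pkm*, *Ldha*, *Txnip* and *Gpx4* in FPKM (vertical axes, each from 0) in the Aal (2), A1 (3) and A3 (3) libraries; points are libraries, and the dash with its bar is the group mean ± SD. *Aldoa* is highest in A1, *Pkm* is high in Aal and overlaps between A1 and A3, *Ldha* and *Txnip* are lower at each stage, and *Gpx4* is higher in A1 and A3 than in Aal.

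The SD over libraries was 0.80% to 11.2% of the mean for *Aldoa*, *Pkm*, *Txnip* and *Gpx4* and 7.03% to 16.5% for *Ldha*. No overlap between the libraries of A1 and Aal was found for 5 of the 5 members, as for 64.0% of the 4632 genes tested. Between A3 and A1 it was found for 3 of 5, against 38.1% of 4590 genes, and between A3 and Aal for 4 of 5, against 73.1% of 4687 genes. The members were chosen with these values known, so nothing is read from their counts. A1 against Aal and A3 against A1 share the A1 libraries, and their values are set side by side only.

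**Figure D2:**
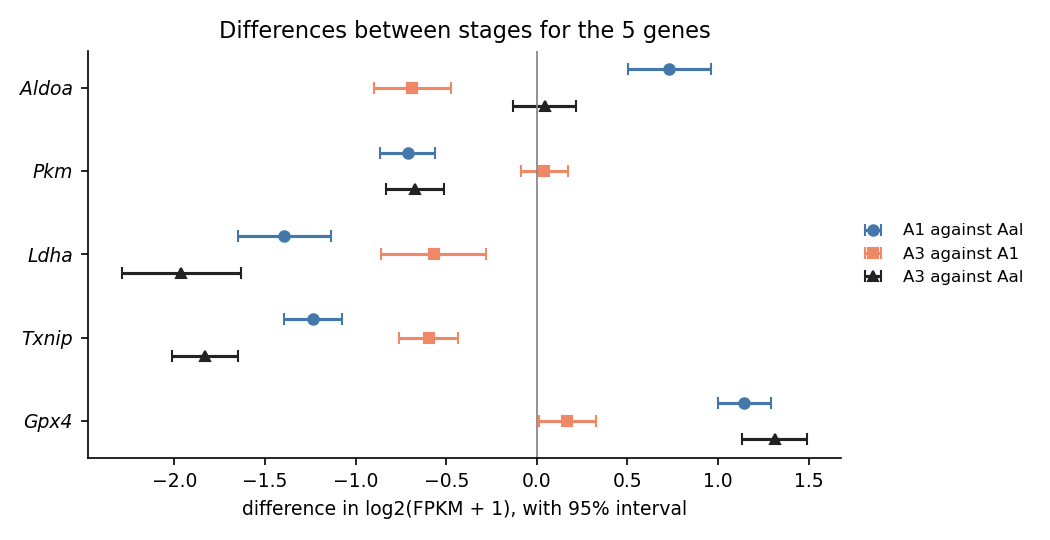
Difference in log2(FPKM + 1) between stages (horizontal axis) for the 5 genes, with bars for the 95% interval; circles are A1 against Aal, squares A3 against A1 and triangles A3 against Aal. *Aldoa* moves to 0.73 and back by -0.69, *Pkm* and *Gpx4* differ mainly between Aal and A1, and *Ldha* and *Txnip* have both steps in the same direction.

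The summed Sertoli markers were high in A1-3 and in A3. Of the A1 libraries, A1-3 had the middle *Aldoa* and *Txnip* values, the highest *Pkm* (149 FPKM) and *Ldha* (6.86 FPKM) and the lowest *Gpx4* (91.3 FPKM). Without A1-3, where the Sertoli sums of the libraries compared were 45.3 to 73.7 FPKM, the differences from Aal to A1 were 0.70 for *Aldoa*, -0.74 for *Pkm*, -1.44 for *Ldha*, -1.25 for *Txnip* and 1.16 for *Gpx4*. Those from A1 to A3 without A1-3 were -0.66 for *Aldoa*, 0.07 for *Pkm*, -0.52 for *Ldha*, -0.58 for *Txnip* and 0.15 for *Gpx4*. For A3 no library had a sum under 256 FPKM. The part of Sertoli RNA in the differences of A3 from A1 and from Aal was not tested, here or for the other genes below.

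**Figure D3:**
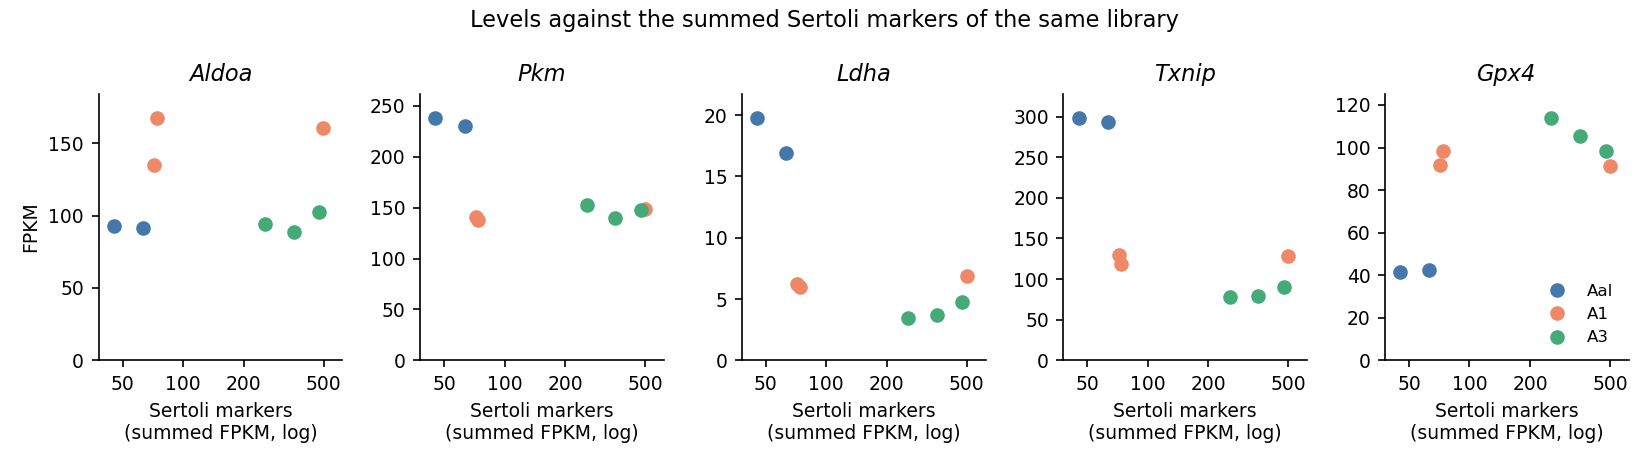
Level of each of the 5 genes in FPKM (vertical axes) against the summed FPKM of 14 Sertoli markers in the same library (horizontal log axes); each point is a library, coloured by stage. A1-3 is at 499 FPKM of Sertoli markers, and A1-1 and A1-2 are at 71.6 and 73.7. Of the A1 libraries, A1-3 is the highest for *Pkm* and *Ldha*, the lowest for *Gpx4* and in the middle for *Aldoa* and *Txnip*.

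Several members have near-identical copies elsewhere in the genome, such as processed pseudogenes, to which reads can be lost. Stretches of 75 bases, the read length, were taken from the longest coding transcript of each gene and compared with the rest of mm9, with up to 3 mismatches allowed. No such stretch of *Txnip* had a copy elsewhere. The share with a copy was 39.1% for *Aldoa* (5 places), 72.4% for *Pkm* (5 places), 68.6% for *Ldha* (15 places) and 71.6% for *Gpx4* (2 places). An exact copy was had by 55.3% of the stretches of *Gpx4*, 21.4% of those of *Pkm*, 6.68% of those of *Ldha* and 1.29% of those of *Aldoa*. How the counting treated reads with several places is not given in the sources used here, so levels of *Pkm*, *Ldha*, *Gpx4* and, less so, *Aldoa* are uncertain against those of other genes. The comparison of 1 gene between stages has the same copies in every library, but whether reads from the copies differ between stages was not tested.

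Over the 8 libraries, the 3 genes most like each member were found among 3015 others with a mean of at least 5 FPKM, by Pearson's r of log2(FPKM + 1). These values describe 8 points in 3 groups that every gene shares, and so mostly the order of the group means. *Txnip* and *Ldha* were each other's second best match (r = 0.995), and both had *Setdb1*, a histone H3K9 methyltransferase, first (r = 0.997 and 0.996). *Setdb1* had the same shape with a much smaller span, from a mean of 88.4 FPKM in Aal to 77.3 in A1 and 72.6 in A3. The third match was *Rbms2*, which encodes an RNA-binding protein, for *Txnip* (r = 0.995) and *Jmjd1c*, which encodes a jumonji-domain protein, for *Ldha* (r = 0.992).

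*Gpx4* was most like *Crabp1*, which encodes a cellular RA-binding protein (r = 0.999). Mean levels of *Crabp1* were 81.8 (Aal), 312 (A1) and 376 (A3) FPKM. Next came *E130309D02Rik* (r = 0.997) and *Rtca*, an RNA cyclase gene (r = 0.996). *Pkm* was most like *Ddah2* (r = 0.991), *Faap20* (r = 0.988) and *Usf1* (r = 0.988). *Usf1* encodes an E-box-binding transcription factor, and its mean levels were 118 (Aal), 57.9 (A1) and 59.4 (A3) FPKM. *Aldoa* was most like the anion exchanger gene *Slc4a3* (r = 0.982), the small GTPase gene *Rasl11b* (r = 0.982) and the caspase gene *Casp6* (r = 0.972), each with its highest mean in A1. Among the members, *Gpx4* ran opposite to *Ldha* (r = -0.98), *Txnip* (r = -0.97) and *Pkm* (r = -0.96), and *Aldoa* was only loosely related to the rest, with r between -0.50 and 0.35.

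The other genes of the same pathways were then tested. Lists of 334 further genes in 14 groups were used, of which 109 were in the table. From Aal to A1, 15 rose and 12 fell at an adjusted p of at most 0.01 (limma, two-sided, Benjamini-Hochberg over all genes tested) out of 93 tested. To be tested, a gene needed 1 FPKM or more in 2 or more libraries of the pair of groups. The share that passed is 29.0%, against 27.0% of all 4632 genes tested. The median difference was 0.13 over the 93 genes and 0.03 over all genes. From A1 to A3, 1 rose and 5 fell of 94 tested, 6.38% against 7.60% of all genes, with a median of -0.04 against 0.01. From Aal to A3, 22 rose and 18 fell of 94, 42.6% against 43.7%, with a median of 0.11 against 0.05. The lists as a whole thus passed about as often as the genes at large. Without A1-3, 31 list genes passed from Aal to A1, and 4 from A1 to A3. With a single Aal library left in the fit, 11 passed from Aal to A1 without Aal-1 and 10 without Aal-2.

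**Figure D4:**
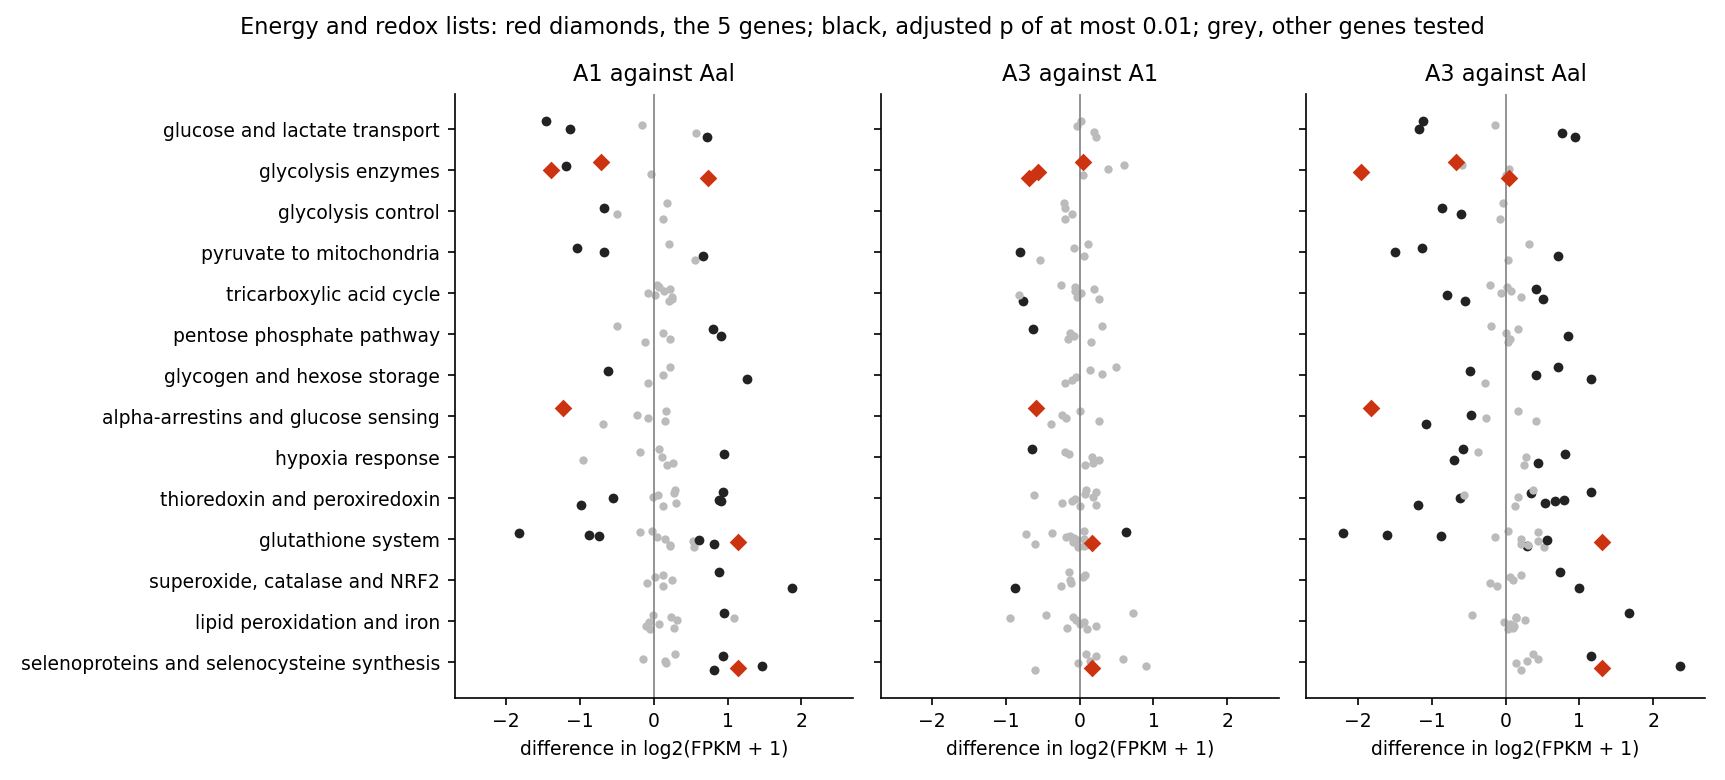
Difference in log2(FPKM + 1) (horizontal axes) for each tested gene of the 14 lists, with 1 panel for each comparison; red diamonds are *Aldoa*, *Pkm*, *Ldha*, *Txnip* and *Gpx4*, black points passed at an adjusted p of at most 0.01 and grey points did not. The middle panel has the fewest black points, with 6 list genes passing from A1 to A3 against 27 from Aal to A1 and 40 from Aal to A3.

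Glucose and lactate transport comes first in the pathway. From Aal to A1, 1 gene rose and 2 fell of 5 tested. *Slc2a3*, a high-affinity glucose transporter, was at 12.0 and 13.3 FPKM in Aal and at 4.51 to 6.27 in A1, and fell by 1.14 (SE 0.14, limma adjusted p = 0.00084). *Slc5a1*, a sodium-coupled glucose transporter, was low throughout, at 2.47 FPKM or more in Aal and 0.22 to 0.36 in A1, and fell by 1.47 (SE 0.12). *Bsg*, the chaperone that brings lactate transporters to the membrane, rose by 0.72 (SE 0.09, limma adjusted p = 0.00098), from 76.1 and 66.7 FPKM in Aal to between 111 and 130 in A1. These 3 also passed from Aal to A3, at -1.18, -1.11 and 0.94. *Slc16a3*, a lactate exporter, rose there too, by 0.76 (SE 0.15, limma adjusted p = 0.0025), but from a low level, with 0.64 FPKM in Aal-1.

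Of 31 other genes of glycolytic enzymes, 6 were in the table, so most steps of the pathway were not analysed here. *Hk3* and *Hkdc1*, hexokinase genes, were under 1 FPKM in every library. Besides *Ldhc* and *Aldoc*, described above, *Ldhal6b* was tested from A1 to A3 and from Aal to A3, at 0.41 to 1.13 FPKM, and did not pass. In the control of glycolysis, *Pfkfb3*, whose product makes the allosteric activator of phosphofructokinase, fell by 0.67 from Aal to A1 (SE 0.15, limma adjusted p = 0.0099), 1 of 4 genes tested. It fell by 0.87 from Aal to A3, and its relative *Pfkfb2* fell by 0.60 (SE 0.14, limma adjusted p = 0.0054). From Aal to A1 *Pfkfb3* missed the threshold with a pseudocount of 0.1, no filter or no mean-variance trend (limma adjusted p between 0.0101 and 0.0145), and without A1-1 (0.0102), A1-2 (0.0197), Aal-1 (0.0503) or Aal-2 (0.0934).

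Genes for the fate of pyruvate changed in both directions, with 1 rising and 2 falling of 5 tested from Aal to A1. *Pdha1*, a subunit of pyruvate dehydrogenase encoded on the X chromosome, had 27.3 and 24.4 FPKM in Aal, 16.4, 14.8 and 16.2 in A1, and 10.0, 7.43 and 8.34 in A3. Its groups did not overlap and lay in the same order as those of *Ldha* and *Txnip*. It fell by 0.68 (SE 0.09, limma adjusted p = 0.00085) and then by 0.82 (SE 0.11, limma adjusted p = 0.0033). *Pdk1*, the kinase that inactivates that enzyme, fell by 1.05 from Aal to A1 (SE 0.09, limma adjusted p = 0.00029) and had no further step that passed (-0.08, SE 0.13). *Pcx*, pyruvate carboxylase, rose by 0.67 (SE 0.08, limma adjusted p = 0.00091). In the tricarboxylic acid cycle 0 of 9 genes passed from Aal to A1 by limma, with 2 at an unadjusted p under 0.05 and 0 by voom on recovered reads. *Aco1* fell from A1 to A3 by 0.77 (SE 0.11, limma adjusted p = 0.0041). From Aal to A3, *Fh1* (0.51) and *Ogdh* (0.41) rose and *Idh2* (-0.80) and *Aco1* (-0.55) fell.

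In the pentose phosphate pathway, which makes NADPH and ribose, 2 of 6 genes rose from Aal to A1. These were *Prps1*, which makes phosphoribosyl pyrophosphate (0.91, SE 0.10, limma adjusted p = 0.00048), and *Rbks*, ribokinase (0.80, SE 0.12, limma adjusted p = 0.0017). *Rbks* had 3.27 and 3.92 FPKM in Aal, 6.85, 6.93 and 7.15 in A1, and 4.17, 4.76 and 3.59 in A3, and fell by 0.63 from A1 to A3 (SE 0.11, limma adjusted p = 0.0086). Its A1 peak had the shape of that of *Aldoa*. In glycogen metabolism, the branching enzyme gene *Gbe1* rose by 1.26 (SE 0.21, limma adjusted p = 0.0029) and the phosphorylase gene *Pygb* fell by 0.62 (SE 0.10, limma adjusted p = 0.0026), 2 of 5 tested. From Aal to A3, *Gbe1* (1.15), *Slc37a4* (0.71) and *Pgm2* (0.42) rose and *Pygb* (-0.48) fell.

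Among alpha-arrestins and glucose sensing genes, to which *Txnip* belongs, 0 of 5 passed from Aal to A1 by limma, with 2 at an unadjusted p under 0.05 and 1 by voom on recovered reads. *Arrdc2*, an alpha-arrestin gene as *Txnip* is, ran from 19.3 FPKM in Aal-2 to 30.5 in A3-3, and its A1 libraries (20.3 to 25.1 FPKM) overlapped those of A3 (from 22.0 upward). Its differences were 0.15 (SE 0.10), 0.26 (SE 0.13) and 0.41 (SE 0.13) in the 3 comparisons and did not pass. *Mlx*, whose product is the partner of the factors that bind the carbohydrate response element, had 11.1 to 15.8 FPKM, with a difference of -0.26 (SE 0.13) from Aal to A3 that did not pass. *Arrb1*, a beta-arrestin gene, fell by 1.07 from Aal to A3 (SE 0.12, limma adjusted p = 0.00018), and *Prkag1*, a subunit of the AMP-activated kinase, by 0.47 (SE 0.09). Of the hypoxia response genes, *Higd1a* rose by 0.96 from Aal to A1 (SE 0.08, limma adjusted p = 0.00026), 1 of 7 tested. *P4ha2* fell by 0.65 from A1 to A3 (SE 0.09, limma adjusted p = 0.0037). From Aal to A3 *Higd1a* (0.81) and *Bnip3* (0.44) rose, and *Epas1* (-0.70) and *P4ha2* (-0.58) fell.

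In the thioredoxin and peroxiredoxin list, the system that TXNIP binds to, 3 genes rose and 2 fell of 11 tested from Aal to A1. *Txnrd2*, the mitochondrial thioredoxin reductase and a selenoprotein like GPX4, had 5.69 and 6.08 FPKM in Aal, 12.9, 11.7 and 12.0 in A1, and 11.7, 15.6 and 16.2 in A3. It rose by 0.94 (SE 0.10, limma adjusted p = 0.00042). *Prdx6*, a peroxiredoxin that also acts on phospholipid peroxides, rose by 0.91 (SE 0.13), and *Srxn1*, which repairs overoxidised peroxiredoxins, by 0.89 (SE 0.15). *Nme8*, a thioredoxin-domain protein of the male germ line, fell by 0.99 (SE 0.13), and *Txndc12*, of the endoplasmic reticulum, by 0.55 (SE 0.09). Between Aal and A3, 5 rose and 2 fell, led by *Txnrd2* (1.16), *Srxn1* (0.79) and *Prdx6* (0.68) upward and *Nme8* (-1.19) and *Txndc12* (-0.62) downward.

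In the glutathione system, to which GPX4 belongs, 2 genes rose and 3 fell of 13 tested from Aal to A1. *Gsr*, the reductase that renews the glutathione GPX4 consumes, had 113 and 111 FPKM in Aal, 172, 176 and 166 in A1, and 164, 169 and 166 in A3. It rose by 0.61 (SE 0.06, limma adjusted p = 0.00035) and its difference from A1 to A3 did not pass (-0.04, SE 0.05). *Gpx3*, the secreted glutathione peroxidase, rose by 0.81 (SE 0.14, limma adjusted p = 0.0031), from 3.15 and 2.86 FPKM to between 5.36 and 6.93, and had 2.54 to 4.51 in A3. *Gpx7*, of the endoplasmic reticulum, had 0.96 to 2.34 FPKM and differences of 0.52 (SE 0.17), -0.09 (SE 0.16) and 0.44 (SE 0.14) that did not pass. The genes that fell encode transferases that attach glutathione to other molecules or are related to these. They were *Mgst2* (-1.83, SE 0.18), *Gstp1* (-0.88, SE 0.11) and *Gsto2* (-0.74, SE 0.10), and all 3 also fell from Aal to A3, by 2.20, 1.61 and 0.87. *Gsr* (0.57) and *Gclm* (0.29) rose from Aal to A3. *Oplah*, which recycles oxoproline to glutamate, rose from A1 to A3 by 0.63 (SE 0.11, limma adjusted p = 0.0078).

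Among selenoproteins and the genes of selenocysteine synthesis, 3 of 7 rose from Aal to A1 and none fell. The share is 42.9%, against 27.0% of all genes tested, and nothing is read from so small a list. Beside *Gpx3* and *Txnrd2*, counted above, the list gene that rose was *Lrp8*, the receptor through which cells take up selenoprotein P. *Lrp8* had 2.23 and 1.77 FPKM in Aal, 5.31, 7.64 and 9.49 in A1, and 11.4, 16.1 and 16.5 in A3, with no overlap between groups. It rose by 1.47 (SE 0.22, limma adjusted p = 0.0017) from Aal to A1 and by 2.37 (SE 0.17, limma adjusted p = 2.8e-05) from Aal to A3. Its highest A1 value was in A1-3, which was high in Sertoli markers, as were the A3 libraries. The part of Sertoli RNA in these rises was not tested. In the superoxide, catalase and NRF2 list 2 of 7 rose. *Sod1*, cytosolic superoxide dismutase, went from 432 and 378 FPKM in Aal to 734, 783 and 712 in A1, a rise of 0.88 (SE 0.10, limma adjusted p = 0.00051). *Blvrb*, biliverdin reductase B, went from 1.16 and 1.24 FPKM to 6.10, 7.41 and 7.79 and then to 2.80, 3.18 and 4.36, rising by 1.87 (SE 0.14, limma adjusted p = 0.00021) and falling by 0.87 (SE 0.16, limma adjusted p = 0.0086). In the lipid peroxidation and iron list, 1 of 10 rose from Aal to A1. This was *Steap3*, an endosomal ferrireductase gene (0.95, SE 0.12, limma adjusted p = 0.00095), from 0.42 and 0.34 FPKM in Aal to between 1.56 and 1.74 in A1. Over the whole course to A3, *Steap3* (1.67), *Blvrb* (1.00), *Prps1* (0.84), *Sod1* (0.73) and *Pcx* (0.72) rose, and *Pdha1* (-1.49) and *Pdk1* (-1.13) fell.

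**Figure D5:**
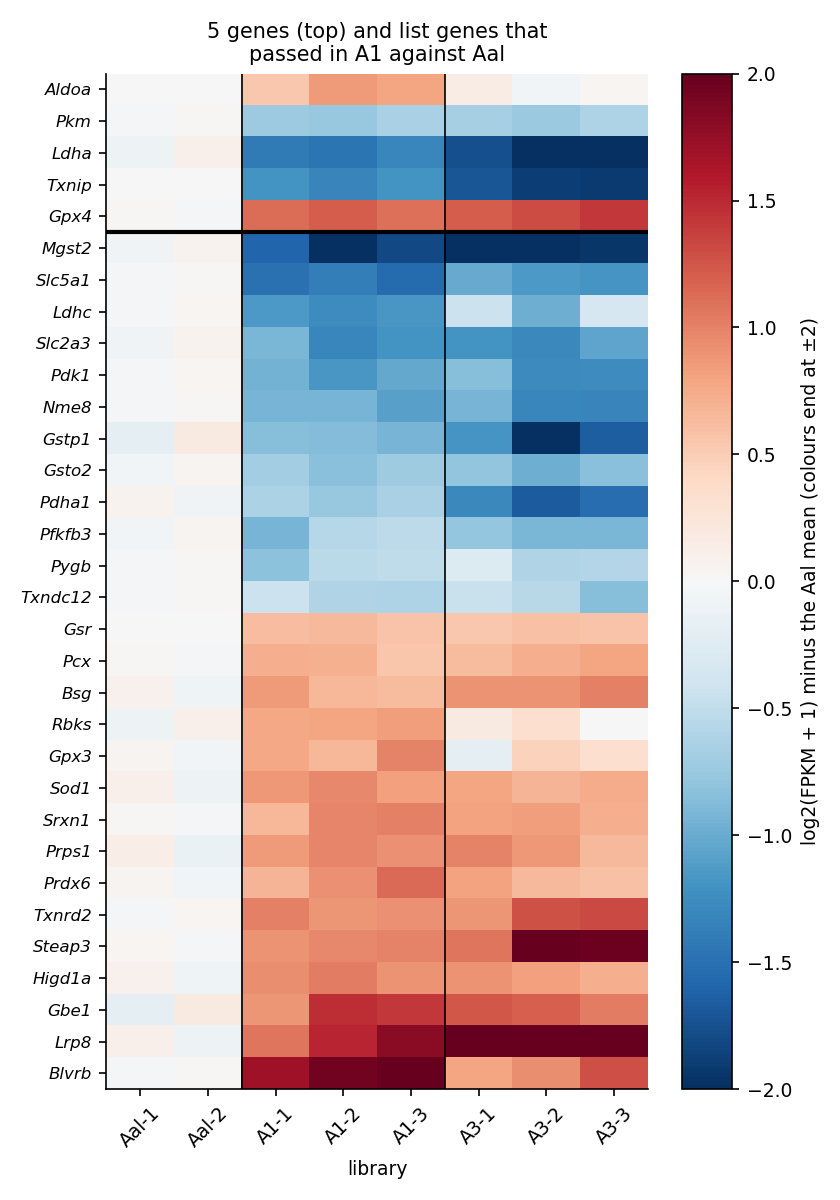
Difference of each library (columns) from the mean of the Aal libraries in log2(FPKM + 1), in colour from -2 (blue) to 2 (red), for the 5 genes (top rows) and the 27 other list genes that passed from Aal to A1, ordered by that difference. *Blvrb*, *Rbks*, *Gpx3* and *Aldoa* are paler in A3 than in A1, while *Pdha1*, *Gstp1*, *Ldha* and *Txnip* are darker blue in A3.

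The step from A1 to A3 had 6 list genes that passed. *Oplah* rose, and *Blvrb*, *Pdha1*, *Aco1*, *P4ha2* and *Rbks* fell. With the replicate number added to the fit as a block, none of the 6 passed (limma adjusted p between 0.0114 and 0.0346). *Blvrb* and *Rbks* passed narrowly, and missed the threshold with a minimum of 5 FPKM, with no filter, with quantile normalization and with voom, at limma adjusted p between 0.0102 and 0.0121 for *Blvrb* and between 0.0104 and 0.0182 for *Rbks*. Both also missed it in every fit without 1 library, at limma adjusted p between 0.0117 and 0.0448 for *Blvrb* and between 0.0158 and 0.0387 for *Rbks*. *Oplah* missed it with no filter and with quantile normalization. This count depended on single libraries, since 2 passed without A1-1, 0 without A1-2, 0 without A3-2 and 0 without A3-3 by limma. At an unadjusted p under 0.05 there were 30, 26 and 26 genes in the last 3 of these fits, and voom on the recovered reads of all libraries gave 6.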

How the data were processed

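Bulk RNA-seq libraries of poly(A) RNA from EGFP-positive germ cells were analysed in 3 groups taken from the sample titles, Aal (n = 2), A1 (n = 3) and A3 (n = 3). Per the submitters' processing notes, the authors used cutadapt 1.9, STAR 2.5.2b and featureCounts with the mm9 genome, and they deposited FPKM per gene and library. The annotation, the use of strand and how FPKM were derived from counts are not given in the sources used here. For all 5736 genes the values moved in steps of 1 read, which gave back reads and library totals (18276164 to 27316451).

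The members and gene lists were chosen with earlier results of these data known. Pairs of groups were compared with limma 3.58.1 in R 4.3.3 (lmFit, eBayes with a mean-variance trend) on log2(FPKM + 1), a pseudocount of 1, for genes with at least 1 FPKM in at least 2 of the libraries compared. Tests were two-sided with Benjamini-Hochberg adjustment over all genes tested. A gene rose or fell at an adjusted p of at most 0.01, and members received no p-value. The fit was tested on simulated data. Of each list, every other gene that passed was named where 6 or fewer did, otherwise the 3 largest rises and falls, besides isozymes of the members and the 3 genes most like each member. *Mlx*, *Hk3* and *Hkdc1* were named after their values were seen, and a gene of the lists is not reported here. Alternatives were a pseudocount of 0.1, a minimum of 5 FPKM or none, median-ratio scaling, quantile normalization, a fit on all 8 libraries, no trend, a replicate block, leaving out each replicate, voom on recovered reads and an adjusted p of 0.05. Positions come from GENCODE M1 (mm9), and copies were searched with BLAST (megablast). No protein sequence was used here.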

Additional observations from a re-analysis of the deposited data

How the results depend on the processing

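The differences of the 5 members kept their size to within 1 SD between replicates in 202 of 215 comparisons with an alternative. The other 13 came from scaling, pseudocount or voom. Part of the 202 was fixed in advance. A minimum of 5 FPKM or none, the fit on all 8 libraries and no trend cannot change a difference of group means. Neither can the replicate block from A1 to A3, where both groups have the same replicate numbers. Quantile normalization gave *Pkm* -0.84 from Aal to A1, -0.054 from A1 to A3 and -0.90 from Aal to A3, *Txnip* -1.31 and -1.94 and *Gpx4* 1.05 and 1.19 from Aal to A1 and to A3, and *Aldoa* -0.14 from Aal to A3. Median-ratio scaling gave *Pkm* -0.76 from Aal to A1. For *Ldha*, a pseudocount of 0.1 gave -1.51 from Aal to A1 and -2.18 from Aal to A3, and voom gave -1.54 and -2.23, since the pseudocount of 1 shrinks differences of low values. The cause of the other shifts was not tested. None of the differences past 1 changed sign.

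The number of other list genes that passed from Aal to A1 was 27 and became 44 at an adjusted p of at most 0.05. Leaving out single libraries gave 10 to 31, with the low values of 11 and 10 where Aal kept 1 library, which was assumed to vary as the other libraries do. From Aal to A3 it was 40, with 17 to 52 when leaving out single libraries (19 without Aal-1, 17 without Aal-2, 52 without A3-1). From A1 to A3 it was 6, with 3 under no filter, 3 under quantile normalization, 18 at an adjusted p of at most 0.05 and 0 to 9 when leaving out single libraries (9 without A3-1). Of 1205 comparisons of the named list genes with an alternative, 149 lost a call (65 with a single Aal library, 43 without another library and 41 under other settings), 2 gained one, and 12 changed sign. From Aal to A3, *Gclm* lost its call under median-ratio scaling, quantile normalization, no trend, the replicate block and 4 of the fits without a library, at limma adjusted p between 0.0131 and 0.0594. *Idh2* lost it with a pseudocount of 0.1, quantile normalization, the fit on all 8 libraries, the replicate block and 3 of the fits without a library (0.0102 to 0.0691), and *Pgm2* with quantile normalization, no trend and either Aal library left out (0.0112 to 0.0279).

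Among the members, *Pkm* from A1 to A3 changed sign under quantile normalization, and *Aldoa* from Aal to A3 did so under quantile normalization, median-ratio scaling (-0.0068) and without A3-1 (-0.0095). Among the other genes named, changes of sign were seen for isozymes that did not pass. For *Aldoc* from Aal to A3 the value was -0.047 with median-ratio scaling, -0.041 with quantile normalization and -0.061 with the replicate block. Leaving out single libraries gave *Aldoc* -0.11 to 0.011 from Aal to A1, -0.020 to 0.14 from A1 to A3 and -0.061 to 0.095 from Aal to A3, *Gpx7* -0.21 to 0.030 from A1 to A3, and *Ldhal6b* -0.023 to 0.19 from Aal to A3. With the replicate block *Ldhal6b* was at -0.017.

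Whether replicate numbers pair the samples is not in the labels. Deviations of same-numbered libraries correlated between -0.32 and 0.05, which cannot settle it with 2 or 3 libraries in a group. The fit with a replicate block uses only the numbers both groups have. It gave 32 list genes from Aal to A1, 1 from A1 to A3, which is none of the 6 that passed without the block, and 35 from Aal to A3. For the members from Aal to A1 it gave 0.70 for *Aldoa*, -0.74 for *Pkm*, -1.44 for *Ldha*, -1.25 for *Txnip* and 1.16 for *Gpx4*. These are the values found without A1-3, since the block takes A1-3 out of this difference, and are not a separate check.

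Depth limits *Ldha* most, at 161 to 173 reads in each A3 library.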
